A study of Homo sapiens with 4 samples.

Results

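SR proteins and heterogeneous nuclear ribonucleoproteins (hnRNPs) are the main families of general splicing regulators, and their mRNA levels were compared between HEK293T cells with and without HELZ. The genes were chosen by name from the deposited count table: the symbols SRSF followed by a number and the symbols beginning with HNRNP, without pseudogenes and antisense genes. The rule matched 38 of the 27011 genes in the table, 12 SR protein genes and 25 hnRNP genes plus 1 read-through gene, HNRNPUL2-BSCL2, whose reads are largely those of HNRNPUL2 and which was therefore left out of the counts below. HEK293T is a line of human embryonic kidney cells that carries the SV40 large T antigen, and HELZ is an RNA helicase with a zinc finger that binds the CCR4-NOT deadenylase complex. The study asked how the transcriptome of these cells depends on HELZ. WT cells (wild-type genotype, n = 2 libraries) were set against a HELZ-null line (n = 2), made with CRISPR-Cas9 and a guide to an exon of HELZ that left a frameshift. All cells were untreated and were collected a day after plating. There is a single HELZ-null line, whether it grew from 1 cell is not given in the sources used here, and differences between the lines other than the edit cannot be told apart from the loss of HELZ. The 2 libraries of a line are described as biological replicates.

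SR proteins bind exonic enhancer sequences through RNA recognition motifs (RRMs) and recruit the spliceosome through a domain rich in arginine and serine repeats. hnRNPs coat nascent RNA and often act against SR proteins at the same exons, and members of both families also serve in mRNA export, stability and translation. Many of these genes control their own mRNA through alternative exons that expose the transcript to nonsense-mediated decay (NMD), so mRNA levels of the families are under feedback.

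The libraries held between 41745401 and 70464140 counts, and 97.8% of them fell in the 10978 tested genes. Gene levels are given as CPM (counts scaled to a common library size) after TMM normalisation, which corrects for the make-up of each library, with factors from 0.987 to 1.01. HELZ mRNA stood at 99.8 and 103.9 CPM in WT and at 36.98 and 37.88 CPM in HELZ-null cells, a log2 fold change (log2FC) of -1.44 ± 0.042 (SE; edgeR adjusted p = 2.1e-27). All 6 HEK293 markers had reads, with summed levels of 1465 and 1466 raw CPM in WT and 1567 and 1585 raw CPM in HELZ-null cells. Of the 5 that were tested, NEFM rose (log2FC 0.89), KRT8 (log2FC -0.98), VIM (log2FC -0.14) and KRT18 (log2FC -0.16) fell, and NEFL was not called (log2FC -0.04); the part of these differences in the results below was not tested. Of 10 markers of leukocytes, red cells, liver, muscle and endothelium, 8 had at most 6 counts in any library, with HBB and AFP at 0 in every library, and their summed level was 1.86 to 2.32 raw CPM in WT and 2.43 to 2.54 raw CPM in HELZ-null cells. In bulk RNA, fewer cells of a type and less RNA per cell cannot be told apart.

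The families were abundant and spanned a wide range of levels. Between genes, levels are compared as FPKM (fragments per kilobase of gene width and per unit of library depth), which divides the counts by the deposited gene width. Of the 37 genes, 33 were among the tested genes, and 4, HNRNPCL1, HNRNPCL2, HNRNPCL3 and HNRNPCL4, had 0 counts in every library, which allows up to 0.043 to 0.072 CPM depending on the library (a limit for counting error only). HNRNPA1, which binds splicing silencers and shuttles to the cytoplasm, had the highest level, with 1012 and 977 FPKM in WT and 978 and 993 FPKM in HELZ-null cells. HNRNPA2B1 followed at 518 to 534 FPKM, and then HNRNPC at 340 to 359 FPKM over the 4 libraries. The lowest expressed hnRNP gene with reads, HNRNPA1L2, a retrogene of the HNRNPA1 family, had 7.10 to 7.50 FPKM.

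Among SR protein genes, SRSF9 had the highest level at 279 to 318 FPKM and SRSF12 the lowest at 4.803 to 5.45 FPKM. SRSF2 at 186 to 190 FPKM and SRSF3 at 174 to 181 FPKM came next and did not overlap. The rank of SRSF9 rests on a deposited width of 1163 bases and on reads that GATC may share, as described below. Before division by width SRSF1 was higher, at 858 and 862 CPM in WT against 336 and 338 CPM for SRSF9. The hnRNP genes HNRNPL (206 and 194 FPKM) and HNRNPH1 (208 and 198 FPKM) overlapped in WT, whereas in HELZ-null cells HNRNPL (213 and 214 FPKM) was above HNRNPH1 (194 and 189 FPKM). All 12 SR protein genes together took 0.384% and 0.387% of the counts in WT and 0.387% and 0.390% in HELZ-null libraries. The 25 hnRNP genes took 1.34% and 1.38% in WT and 1.36% in both HELZ-null libraries, so that the HELZ-null values lay between those of WT. After TMM normalisation the summed hnRNP level was 14243 and 13847 CPM in WT and 13684 and 13728 CPM in HELZ-null cells, and the summed SR level 4002 and 3967 CPM against 3944 and 3914 CPM. Both sums were then lower in HELZ-null cells without overlap, by an amount smaller than the distance between the 2 WT libraries for the hnRNP genes.

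**Figure D1:**
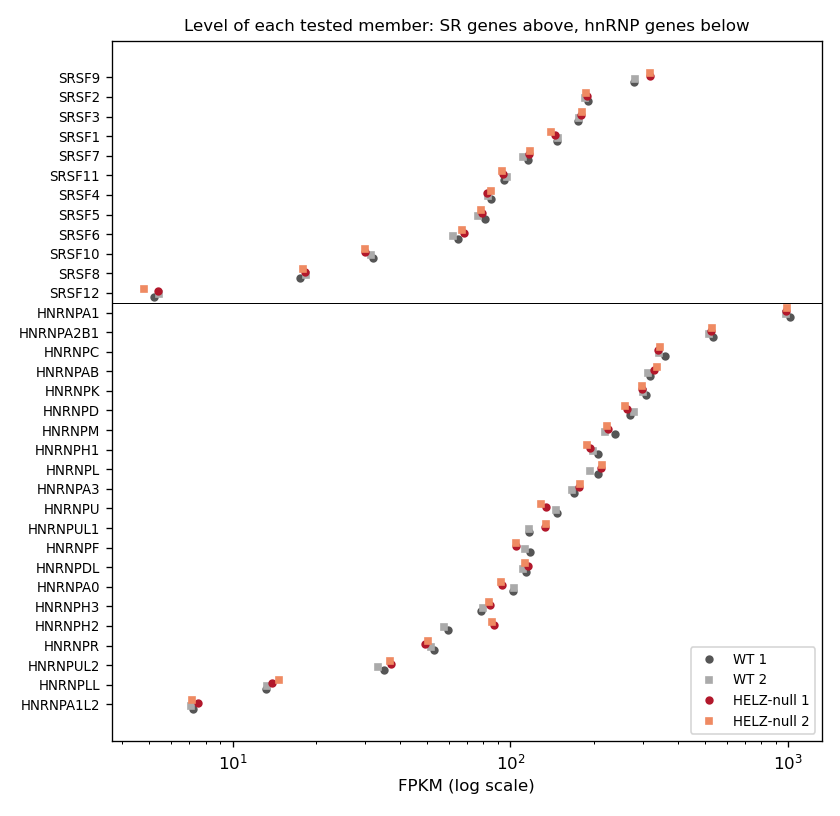
FPKM on a log axis for each of the 33 tested genes, SR protein genes above the line and hnRNP genes below it, with a point for each library. The 4 points of a gene lie close together beside the spread between genes, which runs from 4.803 FPKM (SRSF12) to 1012 FPKM (HNRNPA1); those of HNRNPH2 are the most widely spaced.

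Most of these genes differed little between the lines. With edgeR's quasi-likelihood test and a false discovery rate below 0.005 over all 10978 genes, 3 of the 33 tested genes were higher in HELZ-null cells (9.09%; 13.9% of all tested genes) and 7 were lower (21.2%; 15.5% of all tested genes). The higher ones were HNRNPH2, HNRNPUL1 and SRSF9, and the lower ones HNRNPU, HNRNPA0, HNRNPF, HNRNPH1, HNRNPD, HNRNPR and SRSF10. HNRNPH2 rose by 44.1%, SRSF9 by 10.8% and HNRNPUL1 by 11.9%, and among the genes that fell the change ran from HNRNPR, which fell by 7.19%, to HNRNPU, which fell by 12.3%. Of SR protein genes, 1 of 12 rose and 1 fell, and of hnRNP genes, 2 of 21 rose and 6 fell. The median log2FC was -0.03 over the SR protein genes and -0.03 over the hnRNP genes, against -0.0009 over all tested genes, and the median size of the change was 0.064 over the 33 genes against 0.106 over all tested genes. Without single libraries the median log2FC ran from -0.050 to -0.016 (SR) and from -0.051 to -0.0029 (hnRNP). With scaling by library size alone every log2FC moved up by 0.033 in the median, 4 of the genes were higher and 3 lower beside 2109 higher and 1318 lower of all tested genes (1524 and 1701 with TMM), and the median of the hnRNP genes was 0.0044. The count of lower genes was 3 without HELZ-null replicate 1 (1246 of all tested genes), 3 without HELZ-null replicate 2 (1180) and 12 without WT replicate 2 (1659), and that of higher genes was 5 without WT replicate 1 (1348). Both HELZ-null libraries lay above both WT libraries for 10 of the 33 genes (34.9% of all tested genes) and below them for 13 (35.7% of all tested genes). Only HNRNPH2 passed a test against a change of 1.2-fold.

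**Figure D2:**
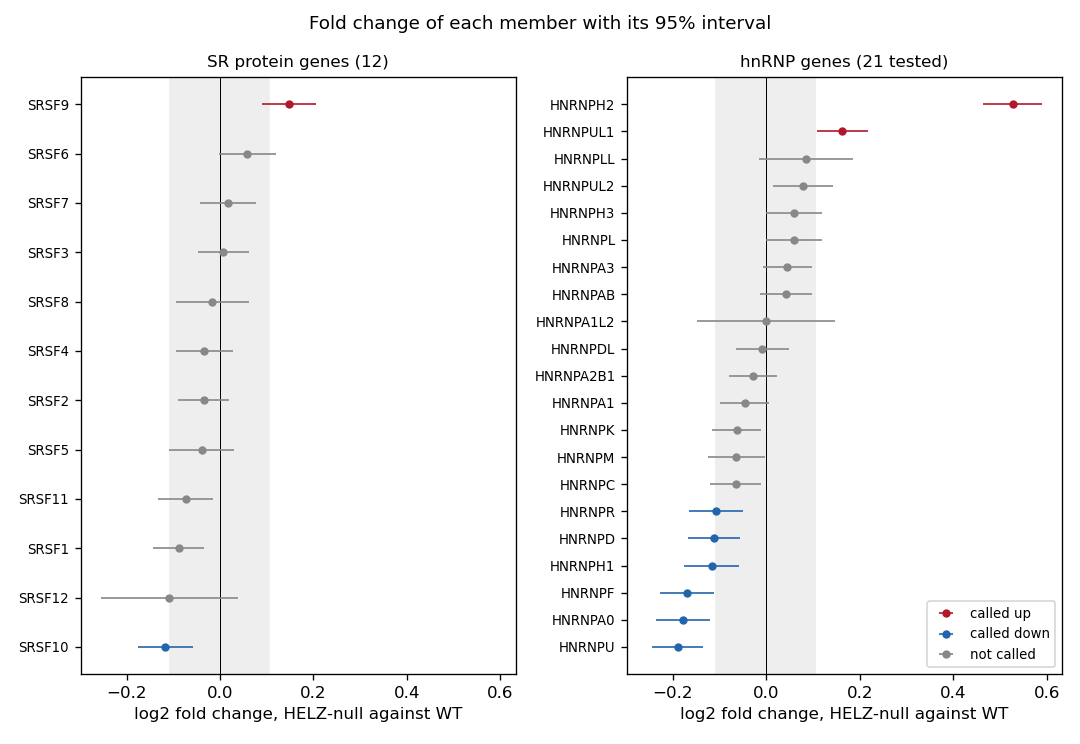
Log2 fold change of HELZ-null against WT for each tested SR protein gene (left) and hnRNP gene (right), with 95% intervals from the fit; red marks genes called up, blue those called down, and the grey band is the range from -0.107 to 0.105 between the quartiles of all 10978 tested genes. HNRNPH2 stands alone at 0.53, and every other gene lies between -0.19 and 0.16.

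The F/H family moved in both directions. These proteins bind runs of guanines through quasi-RRMs, and HNRNPH1 and HNRNPH2 are close paralogs of which the second lies on the X chromosome. HNRNPH2 (GRCh37, chrX:100663210-100669121, plus strand) had 147.1 and 142.7 CPM in WT and 210.5 and 207.5 CPM in HELZ-null cells, a log2FC of 0.53 ± 0.031 (SE; 95% interval 0.46 to 0.59; edgeR adjusted p = 3.2e-17). Both HELZ-null libraries were far above both WT libraries, and the gene was called under every alternative that gave a test. HNRNPF (chr10:43881065-43904634) had 408.7 and 392.8 CPM in WT and 357.2 and 355.6 CPM in HELZ-null cells (log2FC -0.17 ± 0.029, edgeR adjusted p = 5.5e-06), with no overlap. Its 20 nearest tested genes had a median log2FC of -0.07, and relative to that median the log2FC of HNRNPF was -0.10. HNRNPH1 (chr5:179041179-179061785) had 491.9 and 467.5 CPM in WT and 447.9 and 437.4 CPM in HELZ-null cells (log2FC -0.12 ± 0.029, edgeR adjusted p = 0.0010). The fall of HNRNPH1 was not called without WT replicate 1 (edgeR adjusted p = 0.013), without HELZ-null replicate 1 (0.0065), without HELZ-null replicate 2 (0.056) or with scaling by library size alone (0.014); without single libraries its log2FC ran from -0.15 to -0.08. HNRNPH3, a shorter member that lacks the first of the RRMs, had 233.8 and 236.7 CPM in WT and 245.8 and 244.3 CPM in HELZ-null cells and was not called (log2FC 0.06, adjusted p = 0.10). As a level per length, HNRNPH2 went from 57.8 to 59.4 FPKM in WT to 85.8 to 87.1 FPKM in HELZ-null cells, beside 198 to 208 FPKM in WT and 189 to 194 FPKM in HELZ-null cells for HNRNPH1.

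Reads of HNRNPH1 and HNRNPH2 could largely be told apart by sequence, and the start of their coding regions is shown for that reason, with the bases that differ between the paralogs in capitals:
HNRNPH1: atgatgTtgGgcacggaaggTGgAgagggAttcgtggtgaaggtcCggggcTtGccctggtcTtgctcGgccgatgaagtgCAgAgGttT
HNRNPH2: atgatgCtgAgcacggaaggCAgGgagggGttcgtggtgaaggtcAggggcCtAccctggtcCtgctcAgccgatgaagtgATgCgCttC
These are coding bases 1 to 90 of the canonical GENCODE transcripts, and 16 of the 90 differ. Over all 1347 aligned coding bases the genes were 87.6% identical, and a single stretch of 50 bases was found in both mRNAs, out of 2247 such stretches in HNRNPH2. The coding region of HNRNPF was 76.4% identical to that of HNRNPH2 and 77.8% identical to that of HNRNPH1.

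**Figure D3:**
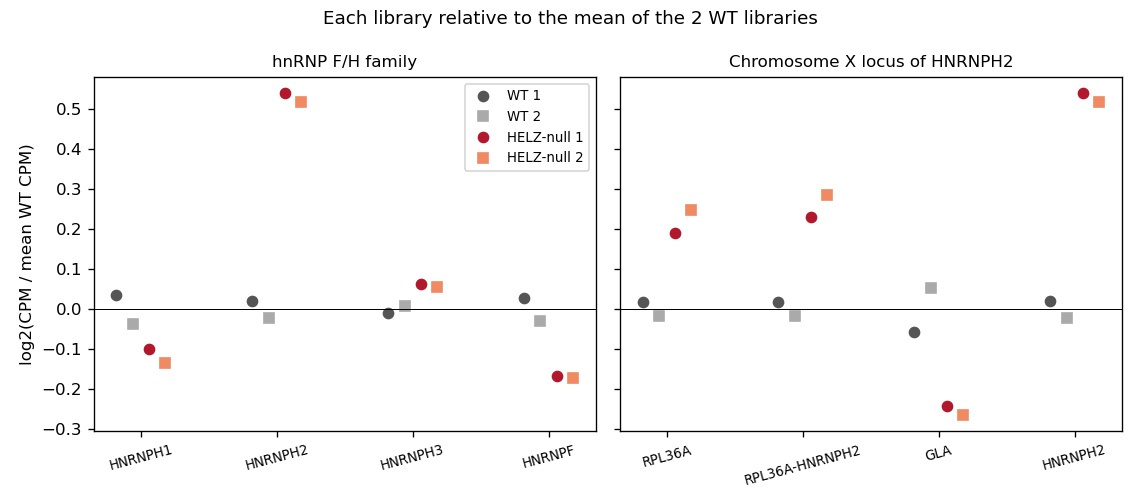
Log2 of the CPM of each library over the mean of the 2 WT libraries, for the hnRNP F/H genes (left) and for the genes at the HNRNPH2 locus on chromosome X (right). HNRNPH2 is about 0.53 above WT in both HELZ-null libraries while HNRNPH1 and HNRNPF are below it, and GLA, which lies next to HNRNPH2, is below WT.

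HNRNPH2 was the only gene of its size of change in the family, and its neighbours on chromosome X were examined for that reason. It starts head to head with GLA, which encodes the lysosomal enzyme alpha-galactosidase A and runs on the minus strand, and it shares a read-through annotation with RPL36A, a gene for a protein of the large ribosomal subunit. GLA had 155.2 and 167.4 CPM in WT and 136.4 and 134.3 CPM in HELZ-null cells (log2FC -0.25 ± 0.034, edgeR adjusted p = 1.2e-07), so the genes on either side of this start region moved in opposite directions. RPL36A had 1246 and 1217 CPM in WT and 1406 and 1463 CPM in HELZ-null cells (log2FC 0.22 ± 0.027, edgeR adjusted p = 8.1e-09). The read-through gene RPL36A-HNRNPH2 had counts that were 102% to 105% of those of RPL36A in every library, and its exons share 230 of the 2296 exonic bases of HNRNPH2 (10.02%), so its log2FC of 0.26 mostly repeats that of RPL36A. Among the 20 tested genes nearest to HNRNPH2, which reach out to 1942 kb, 8 were higher and 4 lower in HELZ-null cells and the median log2FC was 0.12. The change of HNRNPH2 exceeded that median by 0.40 on the log2 scale, and the single neighbours ranged from -0.76 to 0.49.

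The interval between the outermost annotated start of GLA and the start of HNRNPH2 is shown because both genes are transcribed away from it. It covers GRCh37 chrX:100663001-100663209, 209 bases given on the plus strand, with the letters CCAAT and GGGCGG (either strand) in capitals:
GLA to HNRNPH2: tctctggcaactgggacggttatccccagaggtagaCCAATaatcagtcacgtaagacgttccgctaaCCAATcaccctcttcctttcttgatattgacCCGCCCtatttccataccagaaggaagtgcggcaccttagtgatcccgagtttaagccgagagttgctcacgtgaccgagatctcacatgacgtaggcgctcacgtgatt
The interval had a GC content of 50.7% and 13 CpG dinucleotides. CCAAT occurred 2 times, GGGCGG 1 time and TATAAA 0 times, searched on both strands, and the motifs did not overlap. In the RefSeq promoter table of the GRCh38.p14 build, which gives 300 bases around each start, CCAAT was in 34.6% of 35116 promoters, GGGCGG in 45.0% and TATAAA in 11.5%. Of the 33 tested genes, 31 had an entry there, with 45 promoters; 22 of these (48.9%) held CCAAT, 28 (62.2%) GGGCGG and 6 (13.3%) TATAAA. A match of letters does not show that a factor binds.

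The U family also split. HNRNPU, the scaffold attachment factor that binds both chromatin and RNA, had 1039 and 1034 CPM in WT and 925.5 and 892.9 CPM in HELZ-null cells (log2FC -0.19 ± 0.027, edgeR adjusted p = 1.9e-07). It lies near the end of the long arm of chromosome 1 (chr1:245003940-245027862), where 0 of the 20 nearest tested genes were higher and 7 lower, with a median log2FC of -0.09; relative to that median its log2FC was -0.10. HNRNPUL1, a relative of HNRNPU that takes part in the response to DNA double-strand breaks, moved the other way. Its level was 546.5 and 545.0 CPM in WT and 609.4 and 612.1 CPM in HELZ-null cells (log2FC 0.16 ± 0.027, edgeR adjusted p = 4.2e-06; chr19:41768401-41813692). The libraries of each line agreed closely for HNRNPUL1, and both HELZ-null libraries were above both WT libraries. HNRNPUL2, the third member, had 186.7 and 177.0 CPM in WT and 193.2 and 191.4 CPM in HELZ-null cells and was not called (log2FC 0.08, edgeR adjusted p = 0.041), but it passed without WT replicate 1 (log2FC 0.12, adjusted p = 0.0024) and with scaling by library size alone (log2FC 0.11, adjusted p = 0.0032). HNRNPUL2-BSCL2 had 98.5% to 99.3% as many counts as HNRNPUL2, and was not called either (log2FC 0.07).

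**Figure D4:**
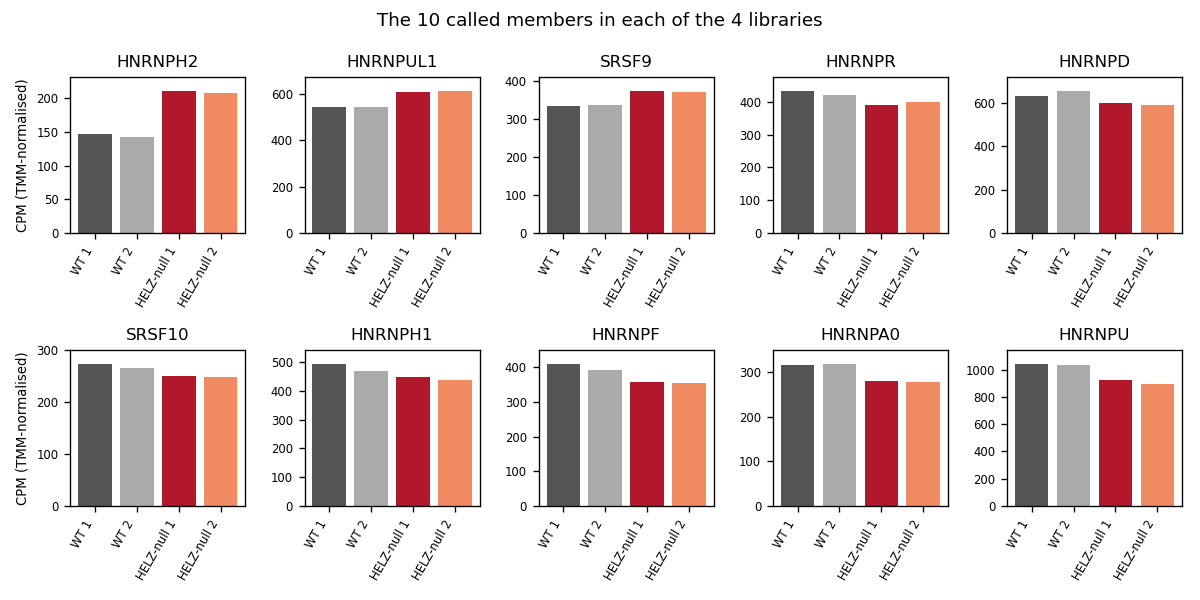
TMM-normalised CPM of the 10 called genes in each library, 1 panel a gene, with bars that start at 0. In each panel both HELZ-null bars lie on the same side of both WT bars, and only for HNRNPH2, at 147.1 and 142.7 against 210.5 and 207.5 CPM, is the step large beside the height of the bars.

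Of the A/B family, whose members bind splicing silencers and in part AU-rich elements, 1 of 5 fell (20%, against 15.5% of all tested genes). HNRNPA0, an intronless gene whose product binds AU-rich elements, had 314.3 and 316.6 CPM in WT and 279.7 and 277.9 CPM in HELZ-null cells (log2FC -0.18 ± 0.029, edgeR adjusted p = 2.5e-06; chr5:137081340-137090052). The groups were clearly apart, and the median log2FC of the 20 nearest genes was 0.06, on the opposite side of 0. HNRNPA1 (log2FC -0.05), HNRNPA2B1 (-0.03), HNRNPA1L2 (-0.0015) and HNRNPA3 (0.04) were not called. In the D-like family, HNRNPD, known as AUF1 for its part in the decay of mRNAs with AU-rich elements, fell from 630.7 and 651.2 CPM in WT to 597.1 and 589.3 CPM in HELZ-null cells (log2FC -0.11 ± 0.027, edgeR adjusted p = 9.7e-04; chr4:83273651-83295656). Without HELZ-null replicate 1 (log2FC -0.12, adjusted p = 0.016) or HELZ-null replicate 2 (log2FC -0.10, adjusted p = 0.050) it kept a change of similar size but did not pass the threshold, nor did it with scaling by library size alone (log2FC -0.08, adjusted p = 0.017). The close relatives HNRNPDL (log2FC -0.0084) and HNRNPAB (0.04) were not called, and HNRNPDL is a neighbour of HNRNPD on chromosome 4.

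HNRNPR, which resembles SYNCRIP and binds mRNAs of neurons, had 431.6 and 419.0 CPM in WT and 390.7 and 398.8 CPM in HELZ-null cells (log2FC -0.11 ± 0.028, edgeR adjusted p = 0.0019; chr1:23630264-23670829). The call was lost without WT replicate 1 (adjusted p = 0.0087), HELZ-null replicate 1 (0.070) or HELZ-null replicate 2 (0.015), with a log2FC from -0.13 to -0.09 without single libraries. It was also lost with scaling by library size alone (log2FC -0.07, adjusted p = 0.028) and with the trend of log2FC with GC content removed (log2FC -0.04, adjusted p = 0.23). Of the other hnRNP genes with reads, none was called: HNRNPC, which binds uridine tracts, had 1207 and 1154 CPM in WT and 1118 and 1138 CPM in HELZ-null cells (log2FC -0.07, edgeR adjusted p = 0.044). HNRNPLL, a splicing regulator known from lymphocytes, had 41.6 CPM in both WT libraries and 42.7 and 45.3 CPM in HELZ-null cells (log2FC 0.09, adjusted p = 0.17). HNRNPK, a poly(C)-binding protein, had a log2FC of -0.06, HNRNPM one of -0.06 and HNRNPL, which binds CA repeats, one of 0.06. The values for HNRNPC, HNRNPK, HNRNPM and HNRNPA1 passed the threshold without WT replicate 2 (log2FC -0.10, -0.08, -0.12 and -0.07), and that for HNRNPL passed without WT replicate 1 (log2FC 0.11), so these calls depended on which WT library was used.

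SR proteins with 2 RRMs were led by SRSF9. This gene, whose product is a short SR protein with a reduced arginine and serine domain, had 335.6 and 338.1 CPM in WT and 373.9 and 372.4 CPM in HELZ-null cells (log2FC 0.15 ± 0.028, edgeR adjusted p = 3.8e-05; chr12:120899475-120933749). Replicates agreed closely, the groups did not overlap, and the call held without any 1 library. The 3′ end of SRSF9 overlaps GATC on the opposite strand over 491 of its 1152 exonic bases (42.6%), and reads there cannot be told apart if counting ignored strand, which is not given in the sources used here; GATC itself had a log2FC of -0.0047. SRSF1, the founding SR protein, was just outside the threshold, with 857.9 and 862.4 CPM in WT and 822.7 and 795.9 CPM in HELZ-null cells (log2FC -0.09 ± 0.027, edgeR adjusted p = 0.0069), and it passed without WT replicate 1 (0.00083) or WT replicate 2 (0.0026). It did not pass without HELZ-null replicate 1 (0.028), without HELZ-null replicate 2 (log2FC -0.06, adjusted p = 0.26) or with the GC trend removed (log2FC -0.05, adjusted p = 0.13). SRSF6 (log2FC 0.06), SRSF4 (-0.03) and SRSF5 (-0.04) were not called, and in SRSF4 and SRSF5 the groups overlapped.

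Of the 7 SR protein genes with 1 RRM, SRSF10 alone was called, a share of 14.3% lower, near the 15.5% of all tested genes. Its product represses splicing when dephosphorylated, for example in heat shock and mitosis. SRSF10 had 272.9 and 266.5 CPM in WT and 249.8 and 247.9 CPM in HELZ-null cells (log2FC -0.12 ± 0.029, edgeR adjusted p = 0.0012; chr1:24290837-24307417). All HELZ-null values lay below WT, but the call was lost without WT replicate 1 (adjusted p = 0.0058), HELZ-null replicate 1 (0.015) or HELZ-null replicate 2 (0.033), with a log2FC from -0.13 to -0.10 without single libraries. It was also lost with scaling by library size alone (log2FC -0.08, adjusted p = 0.017) and with the GC trend removed (log2FC -0.06, adjusted p = 0.11). SRSF11 had 274.3 and 281.4 CPM in WT and 265.0 and 262.8 CPM in HELZ-null cells (log2FC -0.07, edgeR adjusted p = 0.038). SRSF12, a close relative of SRSF10 and the least expressed of the family, had 19.5 and 20.3 CPM in WT and 19.6 and 17.5 CPM in HELZ-null cells, and its groups overlapped (log2FC -0.11 ± 0.073). SRSF2 (log2FC -0.03), SRSF3 (0.0075), SRSF7 (0.02) and SRSF8 (-0.02) had intervals that included 0; for SRSF3, which both splices and exports mRNA, the 95% interval was -0.05 to 0.06.

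Some of these values rest on reads that other genes share. HNRNPA1P10, a pseudogene of HNRNPA1 that was not counted as a member, had 93.1% to 93.2% as many counts as HNRNPA1 in each library, although 16.9% of the stretches of 50 bases in the canonical HNRNPA1 mRNA occur in HNRNPA1P10 and 68.6% of those of HNRNPA1P10 occur in HNRNPA1; how the counting treated such reads is not given in the sources used here. HNRNPA1L2 shared 45.7% of its stretches of 50 bases with HNRNPA1. Of the 33 tested genes, 29 shared no stretch of 50 bases with another of them or with HNRNPA1P10. Counts per gene also do not separate the isoforms of a gene. All 12 SR protein genes and 14 of the 21 hnRNP genes had a transcript that GENCODE marks as a target of nonsense-mediated decay, 78.8% of the 33 genes against 48.7% of the 10162 tested protein-coding genes with a symbol in GENCODE, and HNRNPA2B1 had 35 such transcripts among 49.

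In composition, these genes were poorer in GC than other genes. The canonical transcripts of the 33 had a median GC content of 42.2%, against 48.3% for 10139 tested protein-coding genes, and a median 3′ untranslated region of 2076 bases against 1362. Of the genes that rose, SRSF9 had 52.1% GC, HNRNPUL1 54.9% and HNRNPH2 42.4%. The 7 that fell lay between 35.1% (HNRNPR) and 46.0% (HNRNPF), and had a median canonical transcript length of 6867 bases, against 3589 for the 33 genes, 3363 for tested protein-coding genes and 3703 for those of them called down. Their deposited gene widths were 2257 (HNRNPD), 2290 (HNRNPH1), 2967 (HNRNPA0), 3369 (HNRNPF), 6846 (HNRNPU), 7840 (HNRNPR) and 8213 bases (SRSF10). The canonical transcript of HNRNPA0 had 8713 bases, so the contrast in length depends on the annotation used. Over the 33 genes, Spearman's rho of log2FC with transcript GC was 0.27, with GC of the coding region 0.13 and with transcript length -0.28, as descriptions over genes from the same 4 libraries; over all protein-coding genes they were 0.20, 0.16 and -0.03. Among uncalled genes, HNRNPM had 53.1% GC and a log2FC of -0.06, and HNRNPLL 38.4% GC and a log2FC of 0.09. Over the tested protein-coding genes the median GC content was 52.8% for the 1443 called up and 45.7% for the 1586 called down. When the trend of log2FC with GC content over all tested genes was removed, SRSF10 (log2FC -0.06, edgeR adjusted p = 0.11) and HNRNPR (-0.04, adjusted p = 0.23) were no longer called, HNRNPA3 was (log2FC 0.09), and 4 of the genes were higher and 5 lower, beside 1442 and 1652 of all tested genes. The part of GC content in these differences was not tested further.

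**Figure D5:**
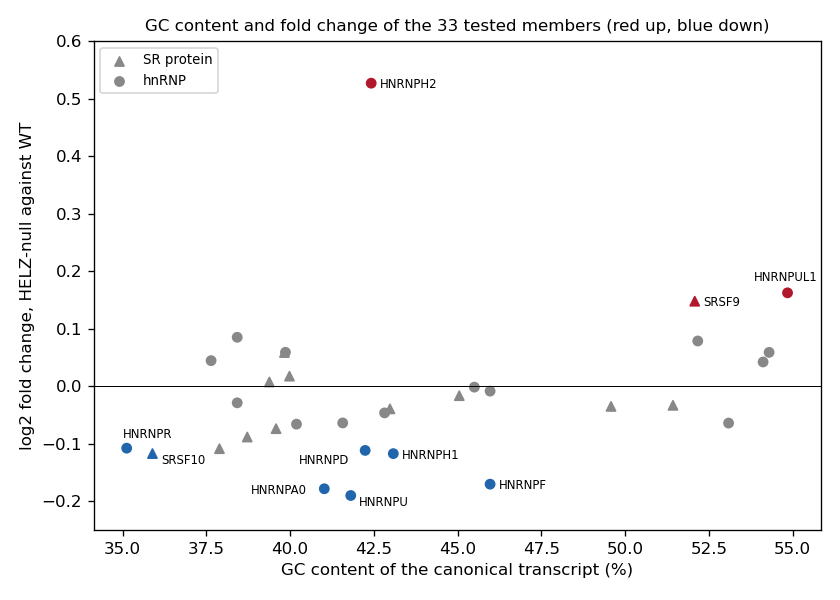
GC content of the canonical transcript in percent against log2 fold change for the 33 tested genes, with triangles for SR protein genes and circles for hnRNP genes, red for called up and blue for called down. SRSF9 and HNRNPUL1 lie at the GC-rich end at 52.1% and 54.9%, the 7 genes called down lie between 35.1% and 46.0%, HNRNPH2 lies at 42.4%, and uncalled genes lie on both sides of 0 at either end of the GC range.

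Other proteins of the splicing machinery showed changes in both directions. Of 80 tested genes in 4 related lists, 9 were higher (11.2%) and 12 lower (15.0%), against 13.9% and 15.5% of all tested genes; with scaling by library size alone, 17 were higher and 5 lower, beside 2109 and 1318 of all tested genes. With the GC trend removed, 10 were higher and 7 lower, beside 1442 and 1652 of all tested genes. Both counts were also smaller without either HELZ-null replicate, as were those over all tested genes. Among 16 other hnRNP-type proteins, 2 rose and 2 fell (12.5% each). PCBP3, a poly(C)-binding protein of low level, went from 2.69 and 2.78 CPM to 4.53 and 4.27 CPM (log2FC 0.68 ± 0.15). It had 1.31 and 1.35 FPKM in WT and 2.25 and 2.13 FPKM in HELZ-null cells. As computed here, it was thus above the authors' limit of 2 FPKM for tested genes in the HELZ-null line alone. Its call, 1 of the 2 that rose, is therefore not independent of that filter. The nuclear matrix protein MATR3 rose as well (log2FC 0.12). CELF1, which binds GU-rich elements, fell (log2FC -0.13), as did SYNCRIP (log2FC -0.11 ± 0.028, edgeR adjusted p = 0.0013), the closest relative of HNRNPR, whose own log2FC was also -0.11.

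Among 23 SR-related proteins, 1 rose (4.35%, against 13.9% of all tested genes) and 5 fell (21.7%, against 15.5%). SRRM2, a large scaffold of nuclear speckles, rose (log2FC 0.16 ± 0.027, edgeR adjusted p = 5.9e-06), whereas SRRM1, its partner in a splicing coactivator complex, fell (log2FC -0.16 ± 0.031, edgeR adjusted p = 8.3e-05), and so did BCLAF1 (log2FC -0.16) and SREK1 (log2FC -0.13). Of the 9 tested kinases and import factors of SR proteins, PRPF4B, a kinase of the spliceosome, was the 1 called (log2FC -0.16 ± 0.035, edgeR adjusted p = 2.9e-04), and SRPK1, SRPK2, the 4 CLK genes, DYRK1A and TNPO3 did not pass. Of 32 core spliceosome genes, 6 rose (18.8%, against 13.9% of all tested genes) and 4 fell (12.5%, against 15.5%). PRPF8, which forms the core of the spliceosome's catalytic centre, rose most (log2FC 0.23 ± 0.027, edgeR adjusted p = 6.0e-09), with PRPF6 (log2FC 0.16) and SNRPB (log2FC 0.13) next. SNRPA1, a protein of the particle that recognises the branch point, fell most (log2FC -0.42 ± 0.038, edgeR adjusted p = 6.8e-12), followed by SF3B5 (log2FC -0.24) and SNRPG (log2FC -0.14). SNRPA1 lies near the end of chromosome 15, where 13 of the 20 nearest tested genes were lower, with a median log2FC of -0.26.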

How the data were processed

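Libraries were made from total RNA of HEK293T cells with a TruSeq RNA kit and sequenced as read pairs. Per the submitters' processing notes and the study's methods, the authors took out ribosomal reads with Bowtie2, aligned what remained to hg19 by TopHat2 and obtained gene counts from QuasR; versions are not given in the sources used here. The deposited values used here are these raw counts, with a gene width. A table of the authors' comparison holds their fold changes and p-values, which were not used; its gene names defined the 10978 tested genes (FPKM above 2 by the authors' filter).

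Counts were fitted with edgeR 4.0.16 (TMM, quasi-likelihood F test, genotype only, all 4 libraries, Benjamini-Hochberg over all tested genes, threshold 0.005), after a test on simulated data; SE is the log2FC over the root of F. The biological coefficient of variation was 2.6%. FPKM was computed from counts, width and total. Annotation was GENCODE v44lift37 on GRCh37, the build of hg19, and 10379 tested genes matched by symbol. Per-library values were printed for each called gene and the 3 uncalled genes of largest change among SR protein genes and among hnRNP genes; those of HNRNPH3 were added after its values were seen, to complete the F/H family. The genes and lists were chosen with earlier results of these data known, and the related lists serve as context. p-values measure the spread between 2 libraries a line. Alternatives were DESeq2 1.42.0, other scalings, filters and thresholds, thinning, a replicate block and leaving out each library; a GC offset and subtraction of neighbours were added after seeing the data.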

Additional observations from a re-analysis of the deposited data

How the results depend on the processing

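The rise of HNRNPH2 passed under all 15 alternative tests. HNRNPUL1, SRSF9, HNRNPU, HNRNPA0 and HNRNPF passed under each of them except the test against a 1.2-fold change. SRSF10, HNRNPR, HNRNPH1 and HNRNPD were lower throughout, with a log2FC from -0.15 to -0.08 without single libraries, but did not pass without some of them or when scaled by library size alone; calls over all genes were also fewer without HELZ-null replicate 1 (1246 lower) or 2 (1180 lower). SRSF12 and HNRNPA1L2, which had the fewest counts of the 33 genes, had the widest intervals. Subtracting the median of the nearest 20 genes left a log2FC of -0.10 for both HNRNPF and HNRNPU; the cause was not tested.

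At a false discovery rate of 0.05, 4 SR protein and hnRNP genes were higher and 11 lower, 3 of the latter SR protein genes, beside 2371 higher and 2506 lower of all genes, with 17 related genes higher and 19 lower. Against a 1.2-fold change, 217 of all genes were higher and 318 lower, 1 hnRNP gene was higher (1 of the 33), 0 were lower, 0 SR protein genes were called either way, and 0 related genes were higher and 1 lower; unadjusted, 16 of the 33 genes and 5590 of all 10978 had p below 0.05 in the quasi-likelihood test of any change. Scaled by library size alone, 3 genes were lower (3 hnRNP, 0 SR), related genes were 17 higher and 5 lower, and the medians were -0.000887 (SR) and 0.0044 (hnRNP). Without a filter on low counts 2 SR protein genes were lower, beside 2027 of 20904 genes. With the GC offset 0 SR protein genes were lower and the hnRNP median was -0.0045. Related genes were then 10 higher and 7 lower, beside 1442 higher and 1652 lower of all genes.

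Leaving out 1 library in turn, which leaves a lone library assumed to vary like the others, gave 3 to 5 genes higher (hnRNP 2 to 4) and 3 to 12 lower (hnRNP 3 to 10, SR 0 to 2), beside 1027 to 1544 higher and 1180 to 1659 lower of all genes. The 3 lower genes came without HELZ-null replicate 1 and again without HELZ-null replicate 2, the 12 without WT replicate 2, and the 5 higher genes without WT replicate 1. Related genes were 3 to 10 higher and 5 to 13 lower, fewest higher without HELZ-null replicate 1. The medians ran from -0.050 to -0.016 (SR) and from -0.051 to -0.0029 (hnRNP).

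Among the alternative fits, the genes that changed sign were uncalled. HNRNPA1L2 became 0.00021 (RLE scaling), 0.032 (library size), 0.0020 (DESeq2), 0.028 (thinned) and 0.0030 (GC offset); HNRNPA2B1 0.0044 (library size) and 0.012 (GC offset); HNRNPDL 0.025, SRSF4 5.6e-05 and SRSF8 0.017 (library size). Without single libraries HNRNPA1L2 ran from -0.029 to 0.033, HNRNPDL from -0.025 to 0.010, SRSF3 from -0.00011 to 0.015, SRSF5 from -0.080 to 0.0088, SRSF7 from -0.0083 to 0.047 and SRSF8 from -0.057 to 0.021. Subtracting the median of the nearest 20 genes, a value with no test, also turned HNRNPA2B1 to 0.10, HNRNPL to -0.04, SRSF6 to -0.0017, HNRNPDL to 0.00047, SRSF3 to -0.011, SRSF7 to -0.0074 and SRSF8 to 0.019.

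The labels do not say that a replicate number marks a shared origin, and the differences between replicates 1 and 2 correlated at 0.034 between the lines over 10978 genes and at -0.299 over the 33 genes. With the replicate number as a block 3 genes were higher and 8 lower, 2 of the latter SR protein genes, since SRSF1 passed, beside 1677 and 1841 of all genes, and HNRNPA1L2 stood at 0.0027.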
